A study of Mus musculus with 32 samples.

Results

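Ribosome-protected footprints (RPFs) were set against mRNA in MIN6 cells held in 25 mM glucose for 24 hours, to describe which genes carried many or few ribosomes for the amount of their message. MIN6 is a mouse insulinoma line that stands in for the pancreatic β cell, and the labels give its genotype as wild type. The comparison used 14 of the 32 libraries of the series, the RPF and the input RNA library of cultures 1 to 7. An eighth culture at 25 mM and the 8 cultures at 5.5 mM were not in the fit. Every culture, RPF and RNA alike, had been treated with cycloheximide for 5 minutes before lysis, and the RNA libraries were made from polyadenylated RNA. Cultures 1 to 4 belonged to library batch 1 and cultures 5 to 7 to batch 2.

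Culture 8 was left out because of its footprints, and those values are given as a description. In RPFs, Dusp6 had 76.8 to 112 CPM (a gene's counts relative to the scaled library total) in cultures 1 to 7, against 16.5 CPM in culture 8 and 3.87 to 17.4 CPM in the 5.5 mM cultures. Kdelr3 had 43.0 to 57.4 CPM in cultures 1 to 7 against 15.1 CPM in culture 8 and 4.42 to 11.6 CPM at 5.5 mM, and Trib3 had 3.94 to 10.5 CPM in cultures 1 to 7 against 34.4 CPM in culture 8 and 24.3 to 49.5 CPM at 5.5 mM. All 3 values of culture 8 fell outside the range of the other 25 mM cultures, and those of Dusp6 and Trib3 but not of Kdelr3 fell within the 5.5 mM range.

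Ribosomes that are elongating along an mRNA shield about the length of a footprint from nuclease, so the number of footprints of a gene, divided by the abundance of its mRNA, is used as its translation efficiency (TE). Several classes of mRNA are known for their place on this scale. Messages that begin with a terminal oligopyrimidine (TOP) tract encode ribosomal proteins and translation factors and respond to mTOR, and messages with upstream open reading frames (uORFs) hold ribosomes back from the main reading frame in unstressed cells. In β cells, proinsulin mRNA is abundant and is translated on the endoplasmic reticulum (ER).

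RPF libraries held 363569 to 3283379 counts and RNA libraries 16423766 to 33504572. The 3 RPF libraries of batch 2 were shallow, at 363569 to 463779 counts, against 1235662 to 3283379 in the 4 of batch 1, so RPFs set the precision. All 12 β cell markers examined were detected in RNA, led by Ins2. Summed RNA levels of 6 fibroblast and of 6 endothelial and immune markers stayed between 0.635 and 1.36 CPM, while Gcg, the glucagon gene of α cells, had 276 ± 93.9 CPM in RPFs and 218 ± 50.2 CPM in RNA (mean ± SD over 7 cultures, as for all such values here), and the ductal keratin Krt7 had 1207 CPM in RPFs and 565 CPM in RNA. Their part in the results was not tested.

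TE is given as the log2 ratio of RPF to RNA, after the 14 libraries were scaled together. A value of 0 marks a gene with the same scaled level in both. Positive values mark genes with more footprints than their mRNA level alone would give. A gene was called well or poorly translated when edgeR's quasi-likelihood test, with the culture as a block, gave an adjusted p under 0.1 and the difference was at least 2-fold. Of 7732 genes with enough counts in both library types, 918 (11.9%) were well translated and 1004 (13%) poorly translated. These shares are the base against which the counts of each gene list below are to be read. They cover tested genes only. A further 4505 genes had enough RNA but too few RPF counts, so genes with the fewest footprints for their mRNA can be missing. At the adjusted p alone, 3160 genes (40.9%) were higher in RPFs and 2832 (36.6%) lower. The median over all genes was 0.06 on the log2 scale, the quartiles were −0.54 and 0.59, and the SD was 1.01. The direction was the same in all 7 cultures for 900 of the well and 994 of the poorly translated genes, and for 2545 of 5810 genes not called. RPF and RNA values did not overlap for 871 of the well and 975 of the poorly translated genes, and for 1686 genes not called. Because the calls rest on these same cultures, such counts are descriptions. With libraries scaled by their totals alone, the median of all genes became −0.14 and the calls 605 well and 1346 poorly translated, so that levels below are to be read relative to the typical gene. Whether RPFs and RNA were counted over the same stretch of each transcript is not given in the sources used here, and its part in the values was not tested.

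**Figure D1:**
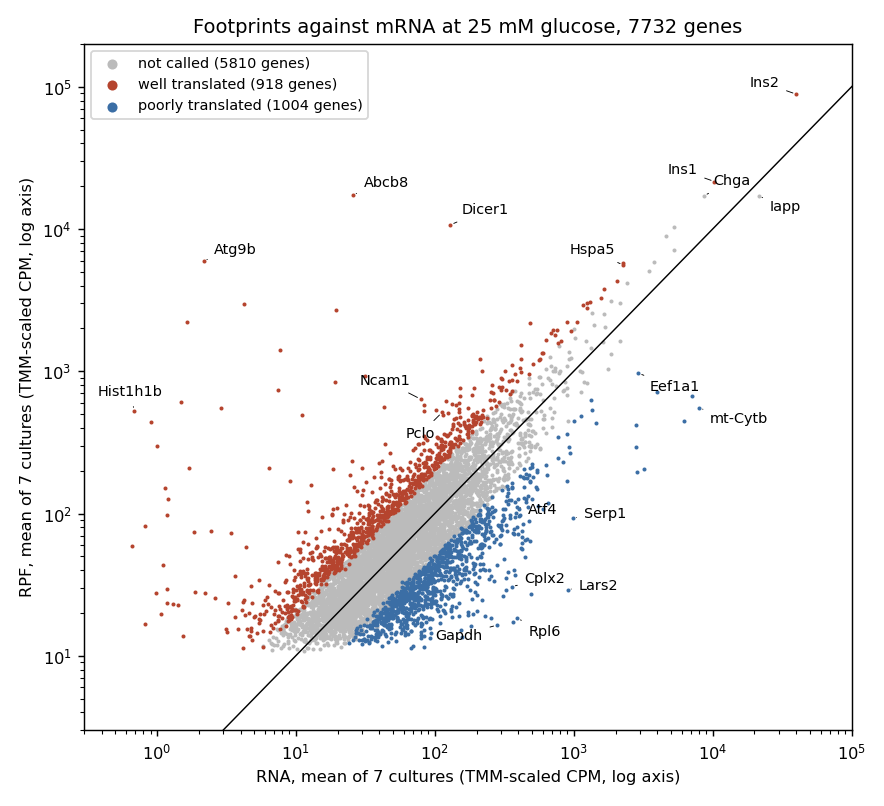
Mean RPF level (vertical) against mean RNA level (horizontal) of each of 7732 genes over 7 cultures, both in TMM-scaled CPM on log axes, with the line of equality. Points above the line are genes with more footprints than mRNA, and the 918 well and 1004 poorly translated genes are coloured. Ins2 and Ins1 lie above the line at the upper right, and a scatter of genes with little RNA lies far above it at the left.

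Footprints were concentrated on fewer genes than mRNA was. On average 432 ± 47.0 genes held 50% of RPF counts, against 896 ± 40.8 genes for RNA. The 10 leading genes took 20.4 ± 1.96% of RPF counts and 12.5 ± 0.46% of RNA counts. Ins1 and Ins2 together took 10.3 ± 1.45% of RPF counts, between 7.60 and 12.2%, and 5.37 ± 0.99% of RNA counts, between 3.98 and 6.51%. Each of these differences had the same sign in 7 of 7 cultures and an exact two-sided sign-flip permutation p of 0.0156. That is the smallest p that 7 cultures can give, and it was also the adjusted value over the 3 measures. Genes with many RPF counts include some with little mRNA and wide variation between cultures, described below. Ankrd60, for example, averaged 15415 CPM in RPFs with 7 RNA counts in all. The part of such genes in the first 2 measures was not tested.

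Both insulin genes were well translated. Ins2, the gene that supplied most insulin mRNA here, had between 64188 and 104897 CPM in RPFs (median 89417), against 31839 to 47483 CPM in RNA (median 38422). Every RPF value of Ins2 lay above every RNA value. Its log2 TE was 1.15 ± 0.10 (SE, adjusted p = 1.7e-07 by edgeR), or 2.22-fold, and ranged from 0.83 to 1.48 between cultures. Ins1, the second insulin gene of the mouse, had 15144 to 26991 CPM in RPFs (median 21710) and 7690 to 13057 CPM in RNA (median 10011), again without overlap. Its log2 TE was 1.06 ± 0.11 (SE, adjusted p = 5.4e-07). Both stood so near the 2-fold limit that library-size scaling placed them below it, at 0.97 for Ins2 and 0.89 for Ins1, as batch 1 alone did for Ins1, at 0.95.

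The other products that share the insulin granule were mostly above the typical gene. Of 25 listed genes of prohormone processing and granule cargo, 22 were tested. Of these, 4 were well (18.2%) and 0 poorly translated, 18 were higher at the adjusted p alone, and the median was 0.51. The well translated members were Pcsk1 and Pcsk2, the convertases that cut proinsulin, Pcsk1n, which encodes an inhibitor of Pcsk1, and Vgf, a granule peptide precursor. Pcsk1 had 1439 to 2390 CPM in RPFs (median 1848) and 574 to 880 CPM in RNA (median 688). Its log2 TE was 1.44 ± 0.16 (SE, adjusted p = 1.1e-06) and lay 0.95 lower in batch 2 than in batch 1, where batch 2 alone gave 0.90. Pcsk1n had 353 to 829 CPM in RPFs (median 553) and 104 to 237 CPM in RNA (median 201), with a log2 TE of 1.70. Chga and Iapp, chosen after their values were seen because of their abundance, differed from each other. Chga, the granule protein chromogranin A, had 16133 to 18204 CPM in RPFs and 7596 to 9796 CPM in RNA, a log2 TE of 0.99 just under the limit. Iapp, the amyloid polypeptide secreted with insulin, had 13918 to 20681 CPM in RPFs and 18404 to 26867 CPM in RNA, ranges that overlapped, with a log2 TE of −0.33 and a negative value in 6 of 7 cultures.

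The study names 11 genes for these cells, of which 5 were well and 0 poorly translated, with a median of 0.88. They include Actb and Tubg1, which the study used as controls. Because it picked the others on these samples, they are no independent evidence of a direction. Igf2, a growth factor, had the highest value, with 494 to 752 CPM in RPFs (median 696) and 67.3 to 223 CPM in RNA (median 172). Its log2 TE of 2.24 ± 0.22 (SE, adjusted p = 4.2e-07) varied from 1.50 to 3.36 between cultures. Pfkfb3, which makes the activator of phosphofructokinase, reached 1.38, and Slc2a2, the glucose transporter GLUT2, 1.12. Slc2a2 was under 2-fold in batch 2 alone (0.73) and with library-size scaling (0.94). The zinc transporter Slc30a8 (0.55), mitochondrial Idh2 (0.88) and Actb (0.73) were higher in RPFs at the adjusted p alone, as was Scgn (0.39). Vps41 (−0.34) and Tubg1 (−0.33) were lower, with a negative value in 6 of 7 cultures each.

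Of 46 listed genes of granule docking and exocytosis 37 were tested, with 5 well (13.5%) and 11 poorly translated (29.7%) and a median of 0.14, where all genes had 11.9% and 13%. Pclo, which encodes the large scaffold Piccolo, had 437 to 585 CPM in RPFs (median 526) and 90.7 to 153 CPM in RNA (median 111), a log2 TE of 2.20. Sytl5 (2.60), Exoc8 (2.05), Exoc2 (1.17) and Rims2 (1.11) were the other members above 2-fold. Among the poorly translated members were genes of SNAREs, which fuse the granule with the plasma membrane, with Vamp2 at −2.06, Vamp3 at −2.02, Stx3 at −1.14 and Snap25 at −1.11. The lowest was Cplx2, the SNARE regulator complexin 2, with 21.4 to 43.5 CPM in RPFs (median 28.9) and 281 to 465 CPM in RNA (median 323). Its RPF and RNA values did not overlap, and its log2 TE of −3.66 ± 0.13 (SE, adjusted p = 3.5e-11) is a 12.6-fold difference. Rab27a and Rab37, GTPases of granule docking, had −1.56 and −1.22.

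Channels and glucose entry had 7 well (36.8%) and 2 poorly translated members (10.5%) among 19 tested, with a median of 0.40. The sulfonylurea receptor Abcc8, a subunit of the KATP channel, averaged 2219 CPM in RPFs and 897 CPM in RNA (log2 TE 1.31), and the calcium channel subunits Cacna2d1 and Cacna1c had 1.89 and 1.59. Among 18 tested β cell transcription factors, 2 were well (11.1%) and 1 poorly translated (5.56%), with a median of 0.04. The first share was near that of all genes. Nkx6-1 had a log2 TE of 1.09 and Hnf4a of −1.27.

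**Figure D2:**
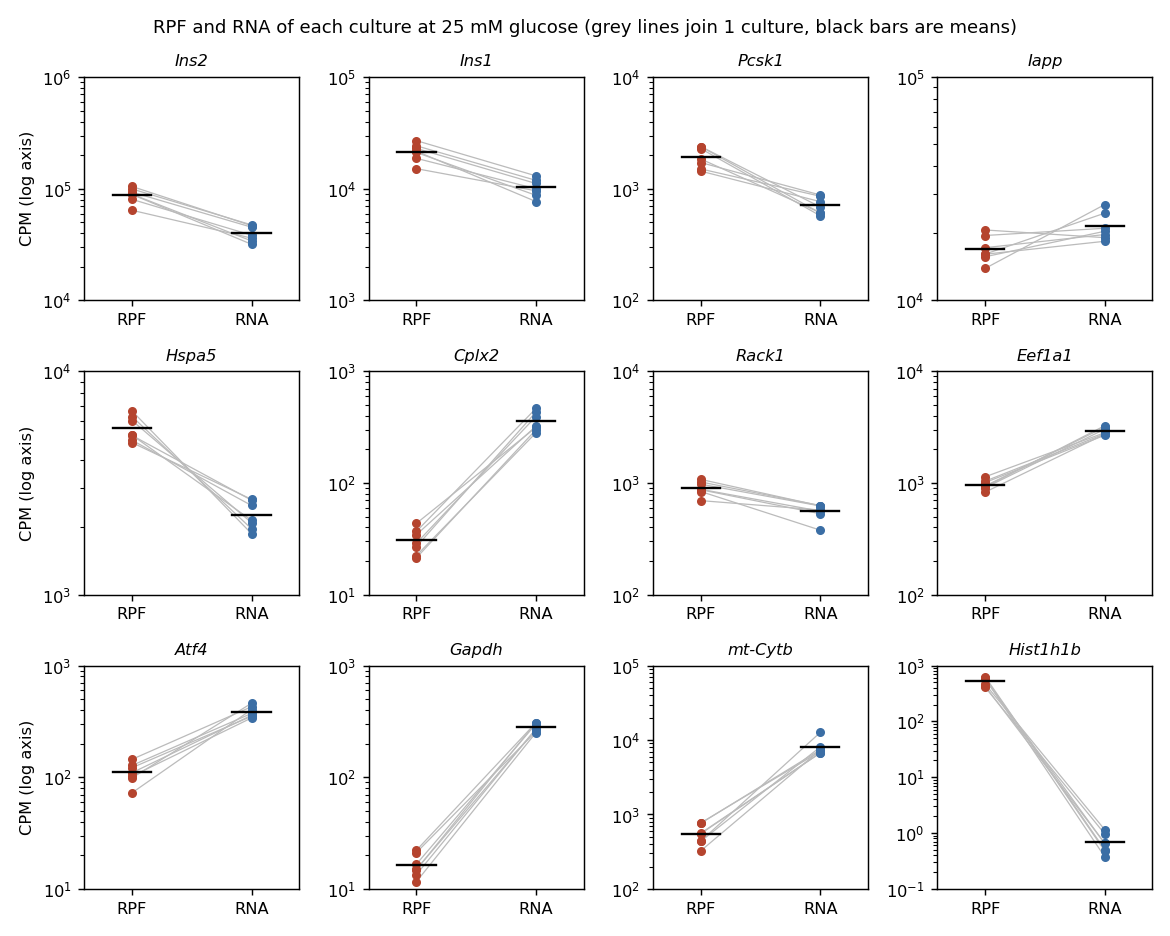
RPF (left, red) and RNA (right, blue) level of 12 genes in each of 7 cultures at 25 mM glucose, in CPM on log axes that differ between panels. Grey lines join the libraries of 1 culture and black bars are means. RPF lies above RNA in every culture for Ins2, Ins1, Pcsk1, Hspa5, Rack1 and Hist1h1b and below it for Cplx2, Eef1a1, Atf4, Gapdh and mt-Cytb, while Iapp overlaps.

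ER chaperones and disulfide isomerases, which fold secreted proteins, had 9 well (21.4%) and 0 poorly translated members among 42 tested, with a median of 0.37. Hspa5, the chaperone BiP, had 4797 to 6646 CPM in RPFs (median 5181) and 1876 to 2672 CPM in RNA (median 2153). Its log2 TE was 1.29 ± 0.13 (SE, adjusted p = 4.3e-07) over all cultures and 0.93 in batch 2 alone. Ppib, a prolyl isomerase, was highest of the list at 1.75. Genes of ER import and N-glycosylation split into 10 well (20.4%) and 8 poorly translated (16.3%) of 49. Ganab (1.62), Rpn2 (1.34) and Stt3a (1.18), which act in N-glycosylation and glycan trimming, were well translated. Sec61b (−1.87) and Sec62 (−1.44), parts of the translocation channel, were poorly translated, although Sec61g of the same channel had 2.31. COPII and COPI coat genes had 8 well (13.8%) and 9 poorly translated (15.5%) of 58, from Arf5 at 1.53 to Arf1 at −1.87. Both shares were near those of all genes. Lysosomal genes had 9 well (24.3%) and 3 poorly translated (8.11%) of 37, with a median of 0.64. The low members Atp6v0c (−1.20), Atp6v1f (−1.24) and Atp6v1g1 (−1.44) were subunits of the proton pump, as was the highest, Atp6v0e (1.70).

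Among translation genes, the aminoacyl-tRNA synthetases, which charge tRNAs with amino acids, were the most uniformly high: all 20 were tested, every one had a log2 TE above 0, from 0.12 to 1.55, and 5 were well translated. Vars, the valine enzyme, had 250 to 429 CPM in RPFs (median 350) and 82.9 to 145 CPM in RNA (median 127). This amounted to a log2 TE of 1.55. Initiation and elongation factors had 3 well (7.69%) and 9 poorly translated members (23.1%) of 39. Eif3i (1.16) and Eif3c (1.10), subunits of the factor that brings mRNA to the small ribosomal subunit, were well translated. Both were under 2-fold with library-size scaling (0.97 and 0.92). Eif4e, the cap-binding protein, was lowest of those tested at −3.34, with 8.77 to 19.1 CPM in RPFs and 129 to 204 CPM in RNA. A further 7 factors had enough RNA but too few RPF counts to be tested. Their log2 ratios of summed RPF to summed RNA ran from −8.39 for Eif1 to 0.28 for Mcts1, with a median of −1.42.

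Of 79 cytosolic ribosomal protein genes, all passed the RNA filter and 33 had enough RPF counts to be tested. Of these, 0 were well and 28 poorly translated, with a median of −1.85, and the median lay between −2.44 and −1.61 in each single culture. Rpl6 was lowest, with 13.2 to 29.7 CPM in RPFs (median 17.5) and 346 to 476 CPM in RNA (median 368). Its log2 TE of −4.25 ± 0.15 (SE, adjusted p = 3.5e-11) is a 19.1-fold difference. Rpl8 (0.49) was among the highest, and it had 646 to 1054 CPM in RPFs against 467 to 571 CPM in RNA. The other 46 genes summed to 0 to 218 RPF counts over all 7 libraries (median 5.5), at RNA levels of 33.2 to 580 CPM (median 212). For the median gene of these 46, the log2 ratio of summed RPF to summed RNA was −8.62, with 0 RPF counts entered as 3. At a total of 11486724 RPF counts, Rps27 had 0 RPF counts and an RNA level of 262 CPM.

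Copies of these genes in the genome moved with that result. RefSeq (GRCm38.p6) names at least 1 pseudogene after 64 of the 79 ribosomal protein genes. Of the 64, 24 (37.5%) had enough RPF counts and all 24 were poorly translated, against 9 of the 15 without (60%), of which 4 were poorly translated. Over all genes with more than 30 CPM of RNA, 58.6% of 227 genes with a named pseudogene passed the RPF filter, with a median log2 TE of −1.12 in those tested, against 93.0% of 6024 genes without, with a median of −0.11. Gapdh, the glycolytic enzyme, has 3 named pseudogenes and had 11.6 to 22.2 CPM in RPFs (median 15.0) against 251 to 309 CPM in RNA (median 271), a log2 TE of −4.10. Among other genes named in this text, Selenok has 8 named pseudogenes, Tpt1 7, Eef1a1 and Uqcrh 2 each, and Actb, Eef2, Srsf3 and Ccnb1 1 each. Reads that match a gene and a near-identical copy could be lost or shared differently between short footprints and longer RNA reads. Only pseudogenes that carry the gene's own symbol were counted, so a gene without a named one may still have copies under other names. The 15 ribosomal protein genes without one had a median log2 ratio of summed RPF to summed RNA of −2.92. That of the 64 was −5.97, and that of all genes with enough RNA −0.16. The values of genes with copies, named or not, are therefore uncertain, and the part of the copies in the result was not tested.

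Of 16 other TOP mRNAs 13 were tested, with 0 well and 5 poorly translated (38.5%) and a median of −0.20. Start-site sequence of 3 members is shown because they carry a tract of the same kind and yet differ in TE. Each is a window of 30 bases on the gene's strand, 8 before and 22 from the RefSeq start, with the pyrimidine tract in capitals, from chr11:48800352-48800381 (plus strand), chr9:78481703-78481732 (minus strand) and chr10:111473219-111473248 (plus strand) of GRCm38.p6.
Rack1: cgctctttCTTTTTCTCCacagggtcgtgg
Eef1a1: ccgccctCTTCCCgagggtgggggagaacg
Nap1l1: tctcgggtCTTTTTTagcgccatctgctcg

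Rack1, a ribosomal scaffold protein, had 696 to 1077 CPM in RPFs (median 878) and 378 to 628 CPM in RNA (median 573), and its log2 TE was 0.70. Eef1a1, which delivers tRNAs to the ribosome, had 829 to 1137 CPM in RPFs (median 941) and 2677 to 3258 CPM in RNA (median 2822), a log2 TE of −1.59 ± 0.10 (SE, adjusted p = 4.0e-09). Nap1l1, a histone chaperone, had 23.8 to 42.1 CPM in RPFs (median 38.8) and 256 to 444 CPM in RNA (median 283), a log2 TE of −3.00. The 3 genes thus ran from above to far below the typical gene, and RPF and RNA values overlapped in none of them. Eef1a1 has 2 named pseudogenes, so its value carries the uncertainty given above. Copies under other names were not counted for any of the 3 genes. The remaining members were Eef2 (0.29), Eif3f (0.26), Eef1b2 (−0.05), Eef1d (−0.08), Eif3e (−0.20), Eif3h (−0.20), Eif4b (−0.62), Pabpc1 (−1.81), Npm1 (−2.75) and Eef1g (−3.39), of which only the last 3 were poorly translated. Tpt1 had 12 RPF counts in all, at 789 ± 179 CPM of RNA, and Hnrnpa1 25 RPF counts at 138 ± 2.97 CPM. Vim was near 0 in both.

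A tract was searched on the gene's strand as a C that starts at most 2 bases from the annotated start and is followed by at least 4 bases that are each C or T. A gene was counted when any of its start windows held a tract. This was so for 21 of 58 ribosomal protein genes with a start sequence (36.2%) and for 5 of 10 other TOP genes. Of 6191 tested genes with a start sequence, 723 were counted (11.7%). Per window, the share was 8.96% of 32851 start windows of all genes. Over the tested genes, 713 with a tract that were not ribosomal protein genes had a median log2 TE of 0.06, with 11.1% well and 13.6% poorly translated, and 5454 without one had a median of 0.05, with 11.3% and 12.7%. A match describes these letters only.

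The uORF-containing mRNAs lay low as a list. Of 18 genes 11 were tested, of which 7 were poorly (63.6%) and 1 well translated (9.09%). The median was −1.49, with single-culture medians between −1.56 and −1.18. Atf4, the transcription factor of the integrated stress response, had 72.6 to 145 CPM in RPFs (median 110) and 340 to 460 CPM in RNA (median 373). Its log2 TE was −1.85 ± 0.13 (SE, adjusted p = 1.4e-08), and its RPF values all lay below its RNA values. Eif5, which controls start codon choice, had 90.3 to 159 CPM in RPFs (median 126) and 412 to 599 CPM in RNA (median 461), a log2 TE of −1.96. The other poorly translated members were Uhmk1 (−2.29), Ifrd1 (−1.61), Azin1 (−1.49), Mdm2 (−1.10, and −0.95 in batch 1 alone) and Odc1. Bace1 (−0.99), Ibtk (−0.88) and Ppp1r15b (−0.83) were lower in RPFs in all 7 cultures but within 2-fold. Eprs, the glutamate and proline tRNA synthetase, was the exception at 1.01, and it dropped below 2-fold without culture 1 (0.95), without culture 2 (0.97), without culture 3 (0.95) and in batch 2 alone (0.73). The members that failed the RPF filter were low as well: Slc35a4 had 4.69 ± 1.55 CPM in RPFs and 87.1 ± 14.8 CPM in RNA, Amd1 0.53 ± 0.55 and 52.6 ± 5.78 CPM, Atf5 16.8 ± 8.19 and 65.4 ± 21.9 CPM, Ppp1r15a 7.36 ± 3.22 and 34.8 ± 2.64 CPM, and Ddit3 3.97 ± 2.08 and 24.2 ± 2.83 CPM. Cebpb, with 16.9 ± 8.23 CPM in RPFs and 7.93 ± 0.90 CPM in RNA, ran the other way, and Cebpa had 2.12 ± 2.51 and 0.05 ± 0.04 CPM.

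Messages under other kinds of translational or polyamine control were also on the low side. Of 25 tested, 8 were poorly (32%) and 2 well translated (8%), with a median of −0.59. Another 8 had enough RNA but too few RPF counts. Their log2 ratios of summed RPF to summed RNA ran from −6.37 for Sms to 0.41 for Txnrd3, with a median of −2.47. Odc1, the first enzyme of polyamine synthesis, had 8.70 to 33.6 CPM in RPFs (median 18.8) and 164 to 231 CPM in RNA (median 180), a log2 TE of −3.30. Oaz1, the antizyme whose synthesis needs a ribosomal frameshift, had −1.93. Ferritin heavy chain, Fth1, had −2.33, and the transferrin receptor Tfrc 1.18, which was under 2-fold in batch 2 alone (0.72). Of the selenoprotein genes, Selenok was at −2.66, Selenow at −2.08 and Selenoo at 2.08.

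**Figure D3:**
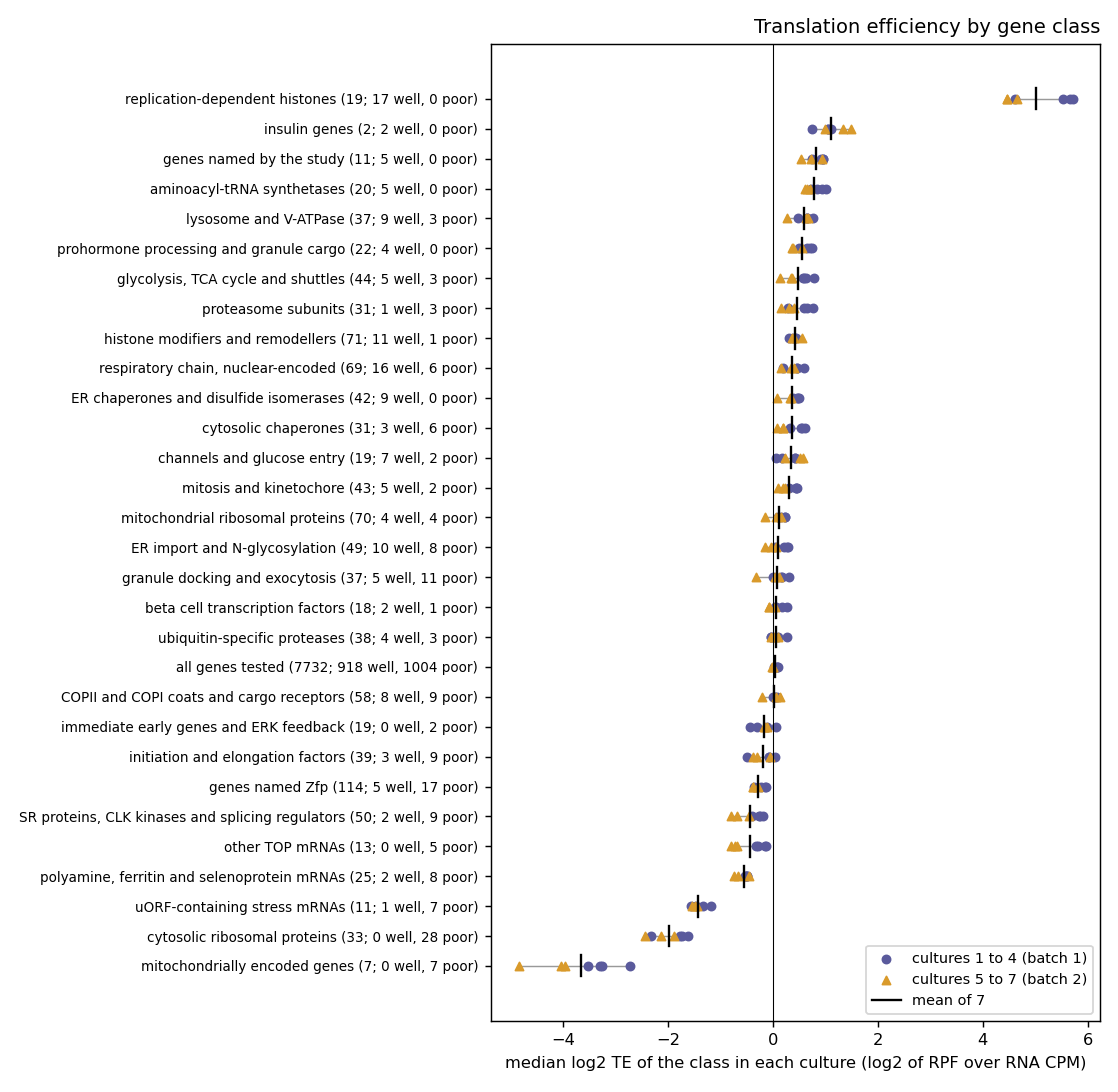
Median log2 TE of each of 29 gene classes and of all genes tested, in each of 7 cultures (circles, batch 1; triangles, batch 2; black bars, mean of 7), with the number tested and called beside the name. Histones lie near 5, mitochondrially encoded genes, ribosomal proteins and uORF-containing mRNAs lie lowest, and most other classes lie between −1 and 1.

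In mitochondria the 2 genomes differed. All 7 tested mitochondrially encoded genes were poorly translated, with a median of −3.75. mt-Cytb had 325 to 769 CPM in RPFs (median 553) and 6712 to 12662 CPM in RNA (median 7370), a log2 TE of −3.86 ± 0.20 (SE, adjusted p = 7.0e-10). These messages are read by mitochondrial ribosomes, which cycloheximide does not stop, and their class median was −4.40 in batch 2 and −3.20 in batch 1. Nuclear-encoded respiratory chain genes had 16 well (23.2%) and 6 poorly translated (8.70%) of 69, with a median of 0.31. Uqcrc1 (1.74) and Uqcrc2 (1.60), core proteins of complex III, were highest. Of the same complex, 3 other subunits, Uqcrh, Uqcrb (−1.92) and Uqcr11 (−1.62), were among the lowest of those tested. A further 9 respiratory chain genes had enough RNA but too few RPF counts. Their log2 ratios of summed RPF to summed RNA ran from −8.14 for Cycs, with 0 RPF counts entered as 3, to 0.61 for Cox7a1. The median was −4.51. Mitochondrial ribosomal proteins stayed near the typical gene, with 4 well and 4 poorly translated of 70 (5.71% each) and a median of 0.15. Enzymes of glycolysis and the TCA cycle had 5 well (11.4%, near the share of all genes) and 3 poorly translated (6.82%) of 44 tested, with a median of 0.54. Another 8 of these enzymes had enough RNA but too few RPF counts. Their log2 ratios of summed RPF to summed RNA ran from −7.89 for Pgk1 to 1.08 for Me3, with a median of 0.03. Pcx, the carboxylase that feeds oxaloacetate into the cycle, had 110 to 287 CPM in RPFs and 33.5 to 78.8 CPM in RNA, a log2 TE of 1.80.

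Histone modifiers and remodellers had 11 well (15.5%) and 1 poorly translated (1.41%) of 71, with a median of 0.34, led by the methyltransferase Kmt2d (2.31). Splicing regulators had 2 well (4%) and 9 poorly translated (18%) of 50, with a median of −0.48. Those 2 were the nuclear speckle genes Srrm2 (1.53) and Son (1.03), of which Son was under 2-fold in batch 2 alone (0.90) and with library-size scaling (0.85). Srsf3 had 13.9 to 40.3 CPM in RPFs (median 29.0) and 147 to 249 CPM in RNA (median 165), a log2 TE of −2.82, and Tra2b (−2.37), Srsf10 (−2.32) and Srsf5 (−1.95) were low too. Of 395 genes named Zfp, 114 were tested, with 5 well (4.39%) and 17 poorly translated (14.9%), the second share near that of all genes. That share leaves out 212 Zfp genes with enough RNA but too few RPF counts. Their log2 ratio of summed RPF to summed RNA had a median of −1.01. Over all 12237 genes with enough RNA, 63.2% were tested. Immediate early genes had 0 well and 2 poorly translated (10.5%) of 19, Egr1 (−1.16, and −0.95 in batch 2 alone) and Btg1 (−1.78).

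Proteasome subunits had 1 well (3.23%) and 3 poorly translated members (9.68%) of 31, with a median of 0.42. Mitotic genes had 5 well (11.6%, near the share of all genes) and 2 poorly translated (4.65%) of 43. Kif20a was at 1.53 and Ccnb1, the mitotic cyclin B1, at −1.78. Ubiquitin-specific proteases had 4 well (10.5%, near the share of all genes) and 3 poorly translated (7.89%) of 38, from Usp9x at 2.01 to Usp1 at −2.34. Cytosolic chaperones had 3 well (9.68%) and 6 poorly translated (19.4%) of 31, with a median of 0.31. Cct6a (1.18) and Cct7 (1.07), subunits of the ring that folds actin and tubulin, were well translated but under 2-fold with library-size scaling (0.99 and 0.89), and Hsp90aa1 (−2.22) and Hspa8 (−1.63) were low.

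Replication-dependent histone mRNAs, which end in a stem-loop in place of a poly(A) tail, were the one class with far more RPF than RNA counts. Of 67 listed genes 19 were tested and 17 were well translated, with a median of 5.35. A further 25 had enough RPF but too little RNA counts. Another 5 had enough RNA but too few RPF counts and mostly ran the other way. Their log2 ratios of summed RPF to summed RNA had a median of −2.32. They ran from −4.65 for Hist2h3c1, with 0 RPF counts entered as 3, to 3.61 for Hist1h2ac. Hist1h1b had 409 to 632 CPM in RPFs (median 567) and 0.378 to 1.15 CPM in RNA (median 0.655), a log2 ratio of 9.51. Hist1h1c had 508 to 654 CPM in RPFs and 67.4 to 95.2 CPM in RNA, a log2 ratio of 2.80. The class took 0.687% of RPF counts and 0.0259% of counts in the poly(A)-selected RNA libraries. These genes passed the RNA filter only where some RNA was counted, and how much of the difference lies in the poly(A) selection was not tested.

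Genes with little RNA made up much of the well translated end. In the lowest of 4 equal bins of genes by RNA level (0.659 to 29.5 CPM), 21.9% were well and 0.569% poorly translated, and in the highest bin (105 to 40015 CPM) 8.95% and 23.4%. A gene with low RNA entered the test only when its RPF counts were high enough, so these shares are a description. Of the 35 genes with a log2 ratio of at least 4, 14 were histones. Their median RNA level was 1.64 CPM.

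Some of the non-histone genes at this end varied widely between cultures in RPFs and little in RNA. Atg9b, an autophagy gene, had 1034 to 10090 CPM in RPFs (median 6703) and 1.58 to 2.61 CPM in RNA (median 2.11). Abcb8, a mitochondrial transporter, had 2123 to 34181 CPM in RPFs and 15.1 to 30.7 CPM in RNA. Dicer1, the miRNA processing enzyme, chosen after its values were seen, had 2873 to 27812 CPM in RPFs (median 9749) and 124 to 139 CPM in RNA (median 129). Ankrd60, also chosen in this way, had 4137 to 23643 CPM in RPFs and 0 to 2 RNA counts in each culture. RPF and RNA values were far apart for all 4 genes, but the SD of log2 RPF between cultures was 0.836 for the median non-histone gene above 4, against 0.286 for the median gene tested.

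**Figure D4:**
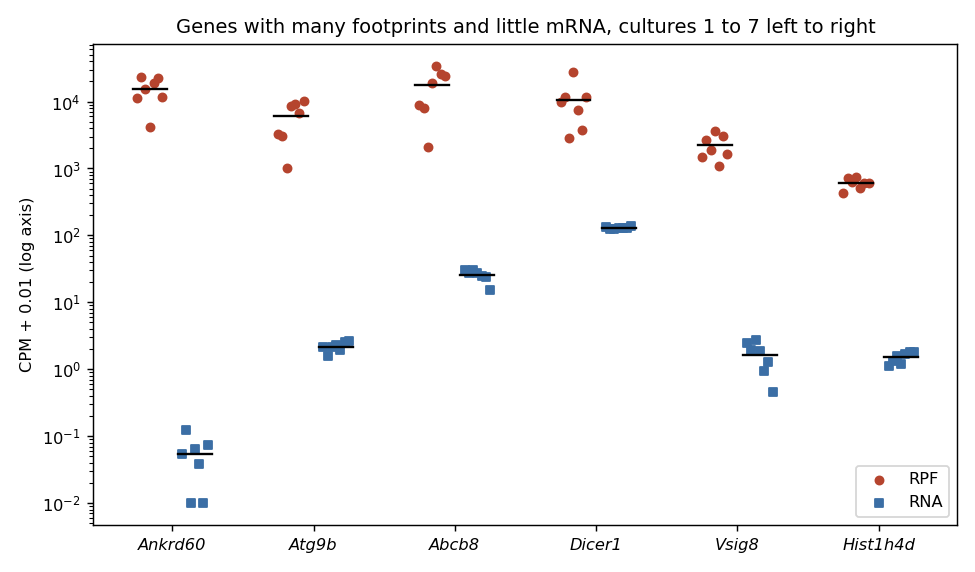
RPF (red circles) and RNA (blue squares) level of 6 genes in cultures 1 to 7, each plus 0.01 CPM on a log axis, with black bars for means. RPF values of Ankrd60, Atg9b, Abcb8 and Dicer1 spread over several fold between cultures, and those of the histone gene Hist1h4d lie closer together.

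To see the extremes among genes well measured on both sides, genes were also ranked, after the values had been seen, among the 602 called genes with 1 sign in all 7 cultures and with RPF and RNA means above the medians of 49.9 and 54.6 CPM. After Dicer1, the highest was Ncam1, a neural cell adhesion molecule, with 558 to 709 CPM in RPFs (median 630) and 70.8 to 90.8 CPM in RNA (median 78.0). Its log2 TE was 3.01 ± 0.09 (SE, adjusted p = 4.1e-12), and it ranged only from 2.89 to 3.14 between cultures. Birc6 (2.33), Fasn (2.20), the fatty acid synthase, Cltc (2.18), the clathrin heavy chain, Cad (2.15), Sptan1 (2.09) and Snrnp200 (2.03) were also in the leading 15. At the low end, beside mitochondrially encoded and ribosomal protein genes, stood Serp1, a small protein of the ER translocation site, with 72.5 to 117 CPM in RPFs and 787 to 1191 CPM in RNA, a log2 TE of −3.34. Cdkn2c (−2.89), a cell cycle inhibitor, Npm1 (−2.75), a nucleolar chaperone listed with the TOP mRNAs, Gng12 (−2.73), a G protein γ subunit, and Calm2 (−2.68), a calmodulin gene, followed. Levels were not divided by transcript or coding length, and the part of length in this order was not tested.

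Among called genes, by the rule based on the averaged level, the lowest values were those of Lars2 (−4.53), Gng4 (−4.46), Rpl6, BC005537 (−4.24) and Gapdh. Genes with too few RPF counts to be tested are outside this ranking. Tpt1, for example, had a log2 ratio of summed RPF to summed RNA of −9.52. Lars2 encodes the synthetase that charges leucine tRNA in mitochondria. It had 17.9 to 37.2 CPM in RPFs (median 29.0) and 395 to 1906 CPM in RNA (median 624), so that here the RNA and not the RPF level spread, and its log2 TE lay 1.62 lower in batch 2.

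Replicate agreement was high but differed by batch. Across genes, log2 TE correlated between cultures of 1 batch with a Pearson r of 0.88 to 0.96, and between cultures of different batches with 0.74 to 0.88. These r are descriptions, and genes are not independent replicates. A test of library type by batch called 2434 genes (31.5%) at an adjusted p under 0.1 with edgeR, 954 higher and 1480 lower in batch 2. Of these, 473 differed by at least 2-fold. The batches also differed in RPF depth, and the part of depth in the difference cannot be told apart from that of the batch. Calls within 1 batch were 830 well and 570 poorly translated in batch 2 (5074 genes tested) and 1135 and 1570 in batch 1 (9700 genes tested).

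Cultures outside the fit gave values without a test. In culture 8 at 25 mM, log2 TE correlated across the 7732 genes with the mean of cultures 1 to 7 at a Pearson r of 0.89. Of the 918 well translated genes, 679 (74.0%) had at least 2-fold more RPF than RNA there, against 12.9% of all genes tested. Of the 1004 poorly translated genes, 883 (87.9%) had at least 2-fold less, against 21.3% of all. Ins2 had a log2 TE of 1.39 in culture 8, Ins1 1.00, Ncam1 3.44, Cplx2 −2.91 and Atf4 −0.96, while Rack1 had −0.04 and Pcsk1 0.50. The class median of ribosomal proteins was −1.96 in cultures 1 to 7 and −3.13 in culture 8 on the same scaling, and that of ER chaperones was 0.29 in cultures 1 to 7 and −0.39 in culture 8. In the 3 cultures at 5.5 mM with a deep RNA library, numbers 1, 3 and 5, the same correlation was 0.71, 0.92 and 0.68. There 75.3%, 86.9% and 75.2% of the well translated genes were at least 2-fold higher in RPFs, against 26.5%, 17.2% and 26.6% of all genes tested. Of the poorly translated genes, 66.5%, 75.2% and 67.7% were at least 2-fold lower, against 19.8%, 12.0% and 25.5% of all.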

How the data were processed

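MIN6 cultures were profiled by the authors with single-end reads of 75 bases. Per the study's methods, the XPRESSyourself pipeline was run on Ensembl release 102 of the mouse. It dropped rRNA and duplicate reads, and gene counts rest on a single transcript each, the longest, taken over its exons or a shortened coding part. Which of these served RPFs and which RNA is not given in the sources used here, nor are tool versions. The deposited files hold raw counts per gene, whole numbers with unequal totals. Of 21927 identifiers in both tables, 21808 had a symbol.

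Counts of 14 libraries were scaled together by TMM and tested with edgeR 4.0.16 in R 4.3.3 (quasi-likelihood, culture as block, Benjamini-Hochberg). Of these identifiers 7732 passed filterByExpr in both types, 4505 in RNA alone, 49 in RPFs alone and 9641 in neither. The SE was taken from the F statistic. TE per culture used a pseudocount of 0.5 CPM, so it understates ratios of low genes. Intervals were not formed. Alternatives used limma 3.58.1 and DESeq2 1.42.0, other scalings, filters and thresholds, single batches, cultures left out and culture 8 kept.

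Cultures are biological replicates per the labels. The pairing comes from the labels, which give the RPF and RNA library of a culture 1 number. Deviations of RPF and RNA from their means correlated with r between −0.36 and 0.32 within a culture and between −0.46 and 0.46 across cultures.

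Members, gene lists and the naming rule were chosen with earlier results of these data known. Named are the study's 11 genes, the 10 highest and 10 lowest called genes above the median of averaged CPM with 1 sign in 7 cultures, the 2 highest and 2 lowest members of each list with 1 sign, all insulin, other TOP and uORF genes, and the 3 largest batch differences. Other called list members were named after their values were seen. RefSeq tables (GRCm38.p6) gave symbols, pseudogenes named after a gene and start sequences. Tests were tried on simulated counts. A few named genes are not reported here.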

Additional observations from a re-analysis of the deposited data

Results flagged for a closer look

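Translation efficiency differed between batches for 2434 of 7732 genes by the test of library type by batch. The 3 largest differences among these were in Pdzd4, higher by 2.81 on the log2 scale in batch 2 (mean log2 TE 2.07 in batch 2 and −0.63 in batch 1), in Kl, higher by 2.69 (adjusted p = 0.0037), and in Tekt2, higher by 2.61 (adjusted p = 5.6e-05), all by edgeR. RPF levels of Kl ran from 64.4 to 1988 CPM between cultures and its RNA levels from 24.3 to 36.2 CPM. Of 176 named genes tested, 77 differed between batches, 25 higher and 52 lower in batch 2.

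In 6 of 182 series of 7 values, 1 culture stood apart from the other 6, where chance marks about 1 in 20. Log2 TE of Vamp2 was −3.54 in culture 7, against −2.20 to −1.50 in the others. Uqcrh was at −3.27 in culture 5 (others −2.23 to −1.51) and Ccnb1 at −2.50 in culture 6 (others −1.85 to −1.51). Rpl8 was at 0.90 in culture 2 (others 0.30 to 0.54) and Psmb4 at 1.62 in culture 7 (others 0.78 to 1.07), and without culture 7 Psmb4 fell below 2-fold, at 0.94. The 10 leading genes took 16.5% of RPF counts in culture 1, against 20.0 to 22.7% in the others.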

How the results depend on the processing

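The 918 well and 1004 poorly translated genes stayed within 1.5 times of these counts in most alternatives. Library-size scaling gave 605 well, and a test against a 2-fold null 590 well. Testing genes that passed the filter in either library type gave 2638 poor, no filter 2416 well and 2934 poor, and the adjusted p alone 3160 and 2832. Poorly translated genes numbered 570 in batch 2 alone, where 5074 genes were tested, and 1570 in batch 1 alone, where 9700 were. Leaving out 1 replicate at a time gave 856 to 1012 well and 800 to 1312 poorly translated genes, and keeping culture 8 gave 896 and 858. Without the replicate block the counts were 927 and 1021, with 897 and 977 shared, and 2413 genes differed between batches. No named gene was reversed where an alternative gave it a value, but batch 2 alone tested 139 of 176 named genes, keeping culture 8 tested 166, and fits without 1 culture 161 to 176. Of 141 named genes called, 19 lost the call in at least 1 alternative. The class median of ER import genes, less that of all genes, was 0.07 and became −0.20 in batch 2 alone, and that of genes named Zfp, −0.31, became 0.07 there. The planned correction for length was not run because the gene tables used here give gene spans but no transcript lengths. RPF depth limits what can be said of low genes, since 4505 genes passed the filter in RNA alone.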

Other observations

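Ins2 had up to 1331254 counts in an RNA library and up to 299248 in an RPF library, over a RefSeq gene span of 1071 bases and with reads of 75 bases. These counts exceed the number of start positions in the gene.

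Between genes the RPF level varied about as much as the RNA level, with an SD of log2 CPM of 1.38 in RPFs and 1.40 in RNA. Across genes, log2 RPF correlated with log2 RNA within a culture at a Pearson r of 0.67 to 0.75, a description over 7732 genes that share their libraries.

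Of 49 genes with enough RPF but too little RNA counts, 25 were histones. Among the others, Foxe1 and Fzd10 were chosen after their values were seen because they varied between cultures. Foxe1 had 9.32 to 659 CPM in RPFs and 0 RNA counts in every culture. Fzd10 had 14.3 to 606 CPM in RPFs and 1 RNA count in all.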
